A study of Caenorhabditis elegans with 6 samples.

Results

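H3K27ac was compared directly between *met-2* and wild-type (WT) body wall muscle by setting 1 ChIC-seq library of each genotype against the other. In ChIC-seq, micrococcal nuclease (MNase) tethered through protein A to an antibody cuts the chromatin that carries the mark, and the fragments set free are sequenced. These are 2 of the 6 libraries of the series. The remaining 4 are WT H3K9me2, WT H3K9me3 and an MNase control of each genotype. The WT library came from N2 (Bristol) animals and the mutant library from met-2(n4256) III animals. Both were L3 larvae grown after L1 synchronization, from which muscle cells were dissociated, fixed in ethanol, stained with the antibody and sorted. The strains sorted for muscle carry, by the study's strain list, a red fluorescent reporter driven by the *myo-3* promoter from an array on X that also holds copies of the *baf-1* promoter. If both libraries came from such strains, the array is shared by both groups, but the sample titles name only N2 and *met-2*.

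Acetylation of lysine 27 on histone H3 is found at active promoters and enhancers, and is laid down by CBP/p300-type acetyltransferases. MET-2, the SETDB1-like methyltransferase of *C. elegans*, places methyl groups on lysine 9 of the same histone, a mark of silent chromatin. On the autosomes of this species H3K9 methylation and repeats are concentrated on the chromosome arms, whereas broadly expressed genes lie mostly in the centres. The comparison asks where H3K27ac is higher or lower when MET-2 is lost.

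The members are all nuclear windows with a read, 99471 of the 100293 windows of the table, each about 1 kb wide in the ce10 assembly. Counts were scaled to a common depth, the mean total of all 6 libraries, which gives scaled reads. The difference is log2(scaled reads + 8) in *met-2* minus the same in WT, with no control subtracted. Windows were also summed by 10 into 10013 bins of 10 kb. A window or bin was called higher above a difference of 0.5 and lower below -0.5. With 1 library per genotype there is no spread between replicates and no test, so every difference below is one between these libraries. The only error available is that of counting, given as exact 95% intervals on the reads of both libraries.

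The WT library had 13658228 reads and the *met-2* library 23481832, 1.72 times as many. Per median 1 kb window these came to 130 (WT) and 228 (*met-2*) reads, and per median 10 kb bin to 1387 and 2407. The controls were shallower, with 9880324 reads in WT and 2475550 in *met-2*, or 72 and 21 per median window. The windows carry no gene names and no ce10 gene annotation was used, so neither the muscle identity of the cells nor the reads over the *met-2* gene were checked. No gene names and no sequences are given for the same reason.

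Most of the genome carried closely similar H3K27ac in both libraries. The difference lay within 0.25 of 0 in 61.1% of 1 kb windows and within the threshold in 89.8%. Its median was 0.01 and its SD across windows 0.31. The 2 profiles had a Spearman correlation of 0.889 over 99471 windows and 0.948 over 10013 bins. The controls of the same genotypes reached 0.393 and 0.446. These correlations run across windows that share a library and neighbour each other, and the controls are the shallower libraries.

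Where the libraries differed, *met-2* was the higher more often. It was higher in 7122 windows (7.16%) and lower in 3052 (3.07%), so that 70.0% of the windows past the threshold were higher. At 10 kb 99 bins were higher (0.989%) and 10 lower (0.0999%). The imbalance was larger further out, with 583 windows above a difference of 1 and 61 below -1. It also depended on the scaling. When both libraries were given the same distribution of scaled reads by rank, 53.6% of the 1 kb windows past the threshold were higher, and 81.1% of the bins. When the MNase control of each genotype was subtracted the balance turned, with 28048 windows higher and 36513 lower, or 43.4% higher, and with 1452 bins higher and 1582 lower, or 47.9%.

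**Figure D1:**
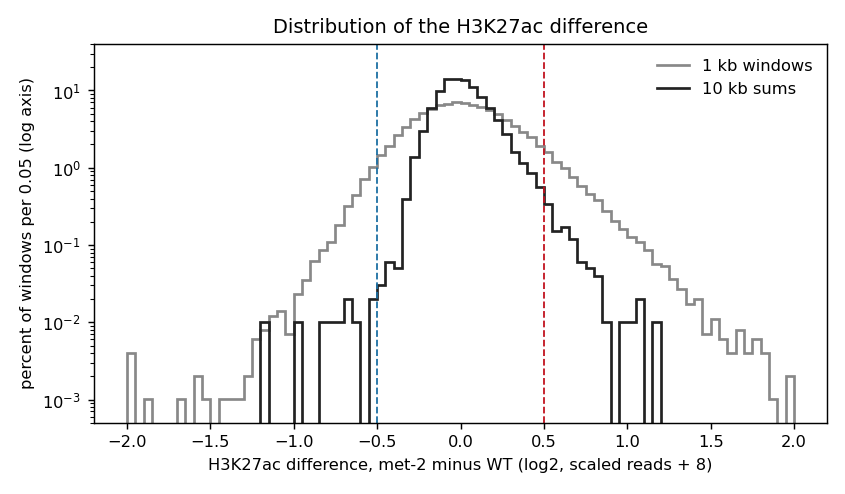
Percent of 1 kb windows (grey) and of 10 kb sums (black) in steps of 0.05 of the H3K27ac difference, *met-2* minus WT in log2(scaled reads + 8), on a log axis. Dashed lines mark the threshold of 0.5 in either direction, and the few windows beyond 2 are drawn in the outermost steps. The right side is the heavier, with 7122 windows above the threshold and 3052 below it, and the 10 kb sums are narrower.

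The difference moved with the level of H3K27ac. Windows were split into deciles of equal number by level. In the decile with the lowest WT level, at most 72.1 scaled reads, the median difference was 0.25, and 29.1% were higher against 4.34% lower. In the decile with the highest WT level, at least 274.7 scaled reads, the median was -0.19, and 0.131% were higher against 7.32% lower. The medians of the deciles between fell at every step. The lowest 2 deciles held 40.7% and 26.6% of all higher windows.

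WT level enters the difference with a minus sign, so windows were ranked in 4 further ways. Ranked on the average of both libraries, the median went from 0.13 in the lowest decile, through 0.14 in the second lowest, to -0.12 in the highest. Ranked on *met-2* level it was 0.01 in the lowest decile, 0.04 in the one with the highest median and -0.02 in the highest decile. The slope seen with WT level was thus almost absent in that ranking.

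The level of the windows touching on either side does not enter a window's own difference. Ranked on the WT level of these neighbours, the median fell from 0.14 to -0.06 and the share higher from 18.4% to 1.96%. Ranked on their *met-2* level it fell from 0.08 to -0.02, and the share higher from 14.1% to 3.59%. The direction from low to high level was therefore downward in all 5 rankings, by 0.44 with WT level and 0.04 with *met-2* level at the extremes.

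**Figure D2:**
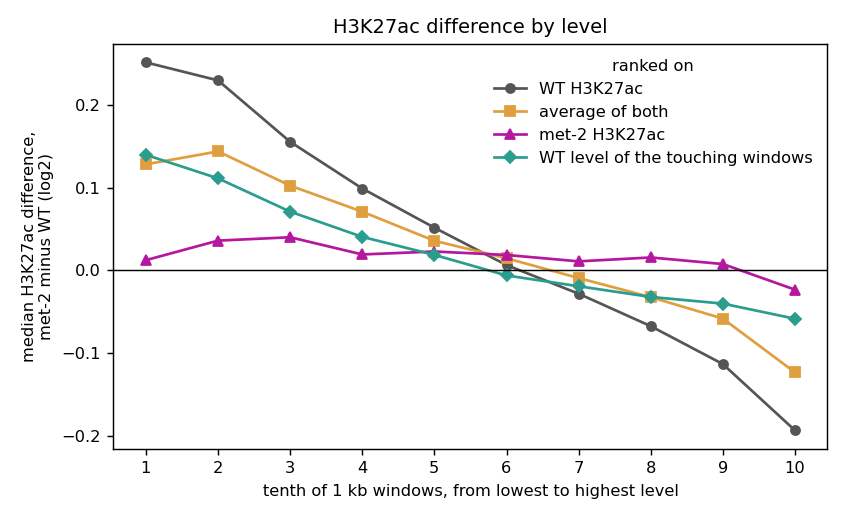
Median H3K27ac difference, *met-2* minus WT in log2, in deciles of 1 kb windows from lowest to highest level, one line per library or measure used for ranking. The line for WT level runs from 0.25 to -0.19, and the line for *met-2* level stays between -0.02 and 0.04. The lines for average level and for the WT level of the touching windows lie between these at either end.

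The range of levels was narrower in *met-2*. From the 5th to the 95th percentile of 1 kb windows, scaled reads ran from 47.2 to 318.2 in WT, a ratio of 6.74, and from 55.7 to 295.0 in *met-2*, a ratio of 5.30. At 10 kb the ratio was 3.24 in WT and 2.72 in *met-2*. A narrower range accompanies higher values at low windows and lower values at high ones. When it was removed by matching the distributions by rank, the lowest decile stood above the highest by 0.19 with WT level, by 0.01 with average level and below it by 0.21 with *met-2* level. The genome-wide relation to level therefore depends on the scaling, and its cause was not tested.

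At 10 kb the higher bins were nearly all poor in H3K27ac in WT. Of the 99, 76 lay in the decile of bins with the lowest WT level and 18 in the decile above it. Their median was 769.4 scaled reads in WT and 1154 in *met-2*, against 1724 and 1740 over all bins. Thus the higher bins approached the level of the genome at large but mostly stayed below it. Ranked on *met-2* level instead, 39 of the 99 lay in the lowest decile and 4 in the highest. The 10 lower bins held very few reads, with medians of 36.0 scaled reads in WT and 20.2 in *met-2*.

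In *met-2* H3K27ac was higher on the autosomal arms and lower in the centres. The median difference was 0.07 over the 50720 arm windows and -0.05 over the 31097 centre windows. In the arms 10.9% of windows were higher and 2.99% lower, while in the centres 2.40% were higher and 3.61% lower. The arms held 77.8% of all higher windows and 51.0% of all windows. Their share of the nuclear H3K27ac reads was 1.04 times as large in *met-2* as in WT, and that of the centres 0.954 times. In the controls the scaled reads of arms and centres moved the other way, by 0.942 and 1.03 times. These control ratios rest on totals that include mitochondrial reads. Over single arms the control was not uniformly lower. It rose on the right arm of IV (1.07 times) and on both arms of V (1.01 on the left, 1.03 on the right). It fell on the others.

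All 10 arms had a higher share of higher windows than any of the 5 centres. The arms ran from 7.48% on the right of I to 15.0% on the right of IV, and the right arm of V was close behind at 14.9%. The left and right arms of II followed with 13.5% and 12.1%. The centres ran from 1.75% on III to 3.39% on V. The share lower differed less, from 2.38% on the left arm of II to 4.52% in the centre of III.

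Chromosome X, which has no such arms and was split into 3 parts of equal window number, showed a weaker version of the same. On X 4.71% of windows were higher and 2.35% lower. The left part had 6.49% higher, the middle 3.28% and the right 4.37%. By whole chromosome the median difference was highest on V (0.05) and IV (0.04) and lowest on III (-0.02) and I (-0.01).

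**Figure D3:**
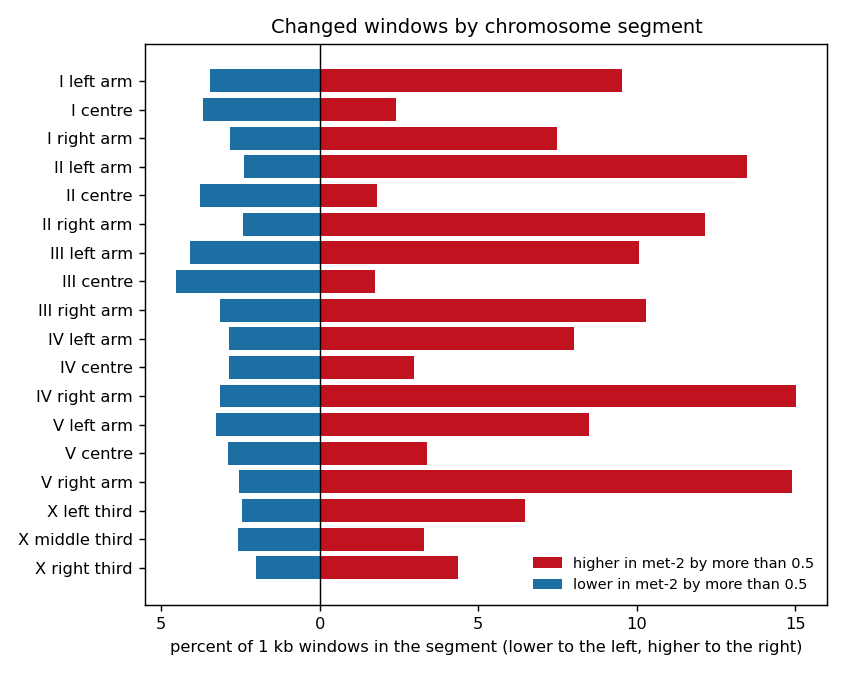
Percent of 1 kb windows in each chromosome segment that were higher (red, to the right) or lower (blue, to the left) in *met-2* by more than 0.5 in log2. Higher windows made up 7.48% to 15.0% of the arms and 1.75% to 3.39% of the autosomal centres, while the share lower stayed between 2.02% and 4.52% in all segments.

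With no control subtracted, the WT H3K9me2 and H3K9me3 libraries had lower medians per 1 kb window in arms than in centres. These were 134.2 against 154.5 scaled reads for H3K9me2 and 150.6 against 164.3 for H3K9me3. The concentration of H3K9 methylation on arms described above was thus not seen in these medians. Arms and centres also differ in H3K27ac level, with medians of 131.8 and 193.9 scaled reads in WT. They were therefore compared within quintiles of the average level. The arms had the higher median difference in all 5 quintiles, by 0.16 against 0.01 in the lowest and by -0.06 against -0.12 in the highest. The share higher was 18.7% against 9.49% in the lowest quintile and 2.62% against 0.441% in the highest. Under matching by rank the medians of arms and centres were 0.02 and -0.05, with 7.31% and 1.78% of windows higher. The offset in medians between arms and centres was then smaller, but kept its direction. The shares lower did not keep their order. They were 4.90% in arms and 4.00% in centres, against 2.99% and 3.61% without matching.

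At 10 kb the contrast was sharper in counts. The arms held 86 of the 99 higher bins and the centres 3, and the remaining 10 lay in the left part of X. The right arm of V alone held 30, the right arm of IV 18 and the left arm of II 12. Within the 99 bins 526 of 948 windows (55.5%) were higher and 7 were lower. In 44 of the bins every window differed in the same direction. The bins were picked on the sum of these same windows, so a high share is built in. In the bins within the threshold 6.70% of windows were higher.

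The higher windows were set against the other 4 libraries at matched average level, since none of these enters the difference. WT H3K27ac, which enters it with a minus sign, was not matched by this. Its median at higher windows was 54.7 against 77.1 scaled reads within the threshold in the lowest quintile, and 195.8 against 272.2 in the highest. Its part in the relations to the other WT libraries was not tested. WT H3K9me2 was lower at higher windows than at windows within the threshold in each quintile of average level, from 67.6 against 93.3 median scaled reads in the lowest to 146.3 against 202.2 in the highest. The reverse held at the lower windows of the upper 4 quintiles, which had more H3K9me2 than windows within the threshold, for example 233.5 scaled reads in the highest quintile. WT control reads moved in the same way as H3K9me2, with 53.3 against 75.6 in the lowest quintile and 137.5 against 185.6 in the highest. Ranked on H3K9me2 over all windows, the lowest decile had a median difference 0.30 above the highest. This step changed sign when the MNase controls were subtracted.

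WT H3K9me3 showed little of this pattern. Its median at higher windows was 95.2 against 100.6 scaled reads in the lowest quintile and 181 against 175.6 in the fourth quintile. Ranked within the lowest quintile of average H3K27ac, windows with the most H3K9me3 had a median difference 0.08 above those with the least. The same step was 0.06, 0.05 and 0.04 in the next 3 quintiles and -0.03 in the highest. For H3K9me2 the step was between -0.17 and -0.09, and for the WT control between -0.15 and -0.06. For the *met-2* control it was 0.07 in the lowest quintile and between -0.06 and -0.03 in the others.

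The controls also differed between genotypes where H3K27ac did. The log2 difference between the controls had a median of 0.31 at higher windows, -0.28 at lower windows and 0.00 at windows within the threshold in the lowest quintile of level. In the highest quintile these medians were 0.55, 0.05 and 0.25. At lower windows the control difference was below 0 in the lowest 3 quintiles and slightly above it in the upper 2. Over all windows the Spearman correlation of the H3K27ac difference with the control difference was 0.097, and 0.141 over bins. A window in the *met-2* control held 21 reads at the median, and the part of the controls in the H3K27ac difference was not tested.

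Changed windows lay next to each other more often when they were higher. The 7122 higher windows formed 5690 runs of touching windows, of which 4711 were single. Of these runs 979 had at least 2 windows, 259 at least 3 and 31 at least 5, and the longest had 28. The 3052 lower windows formed 2838 runs, of which 18 had at least 3 windows, with a longest run of 5. A window after a higher one was itself higher in 20.2% of cases, 2.82 times the share over all windows, and after a lower one lower in 7.05%, 2.30 times. Runs of 3 or more held 13.6% of the higher and 1.87% of the lower windows. These counts depend on the processing: matching by rank gave 125 higher and 40 lower runs of at least 3, and with the control subtracted the order turned, to 2143 and 3653.

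**Figure D4:**
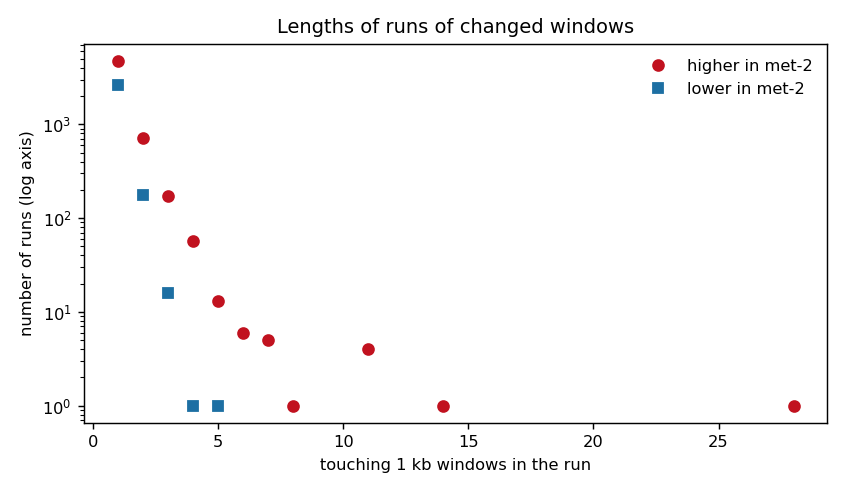
Number of runs, on a log axis, by the number of touching 1 kb windows they hold, for windows higher (red circles) and lower (blue squares) in *met-2* by more than 0.5 in log2. Runs of lower windows end at 5, whereas runs of higher windows go on to 11, 14 and 28.

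The long higher runs were mostly on the arms, which hold 50720 of the 81817 autosomal windows. Of the 243 autosomal runs of at least 3 higher windows, 238 began in an arm and 5 in a centre. The right arm of V held 56, the right arm of IV 47, the left arm of II 35 and its right arm 26. Of the 16 on X, 15 lay in its left part. Of the 18 lower runs of this length 8 were on V. The 16 autosomal ones also began mostly in arms, 12 against 4 in centres. Neighbouring windows also shared their difference at longer range. Pearson's r of the difference was 0.24 between windows 1 kb apart, 0.10 at 10 kb, 0.06 at 100 kb and 0.04 at 500 kb, a description over up to 99204 pairs. The control difference gave 0.13, 0.02, 0.01 and 0.01.

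At a broader scale the higher bins were confined to a minority of blocks. Of 503 blocks of 200 kb, 446 held no higher bin and 2 held at least 5. These were the block of chromosome V from 18179000 to 18378998, with 6 of its 20 bins and 61 of its 196 windows higher, and the left end of X from 1 to 199823, with 5 bins and 68 of 193 windows.

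Over the 31 runs of at least 5 higher windows, 230 windows in all, the ratio of scaled reads in *met-2* to WT ran from 1.53 to 2.25 with a median of 1.80. Of these runs 20 lay on a right arm, 9 on a left arm, 2 in the left part of X and none in a centre. Chromosome II held 11, V 9, IV 6, III and X 2 each and I 1. The control ratio over the same windows had a median of 1.29 and a range from 0.617 to 5.02. Its counting interval lay above 1 in 19 runs, below 1 in 4 and spanned 1 in 8. In 16 of the 31 the interval of the H3K27ac ratio lay wholly above that of the control. The runs were picked on the H3K27ac difference and not on the control, so an H3K27ac ratio away from 1 is built in. The counting intervals do not allow for this choice. The same holds for the runs, bins and windows named below by their difference, and for the lower runs.

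The longest higher run covered 28 windows on the right arm of chromosome III, from 11756843 to 11784842. It held 3351 WT reads and 12673 *met-2* reads, or 148.8 and 327.2 scaled reads per window, a ratio of 2.20 (95% interval 2.12 to 2.29). Every window of it was higher, by 0.64 to 1.83. Of the 5 windows on either side, those to the left differed by 0.09 to 0.55 and those to the right by -0.54 to 0.00, so the difference ended more abruptly on the right. The control over the same windows held 2165 WT reads and 1123 *met-2* reads, a ratio of 2.07 (1.92 to 2.23), and the difference between the controls passed 0.5 in 21 of the 28 windows. H3K27ac and control thus differed by nearly the same factor here. The 10 kb bin with the largest gain, from 11769843 to 11779842 with a difference of 1.18, and the one with the third largest gain, from 11759843 to 11769842 with 1.06, lie in this run. Their control ratios were 2.86 and 1.23.

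The remaining 4 named higher runs had control ratios between 1.14 and 1.37. On X a run of 14 windows near the left end, from 90825 to 104824, held 480 WT reads and 1859 *met-2* reads, a ratio of 2.25 (2.04 to 2.50). Its control ratio was 1.37 (1.16 to 1.62), so the intervals did not overlap. H3K27ac was low on both sides of this run too, and the 10 flanking windows had a median difference of 0.49. On the right arm of V, 11 windows from 16912012 to 16923011 held 516 and 1827 reads, a ratio of 2.06 (1.87 to 2.28), with a control ratio of 1.14 (0.962 to 1.33). The interval of that control spanned 1.

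A further 11 windows on the right arm of V, from 17771004 to 17782003, held 632 WT reads and 2060 *met-2* reads, a ratio of 1.90 (1.73 to 2.08). The control ratio was 1.33 (1.13 to 1.55). On the left arm of II, 11 windows from 1918421 to 1929420 held 804 and 2680 reads, a ratio of 1.94 (1.79 to 2.10), and a control ratio of 1.24 (1.07 to 1.44). WT H3K9me3 over this run was 219.2 scaled reads per window, above the genome median of 157.2, whereas H3K27ac in WT was 90.9. In these 3 runs of 11 windows H3K27ac in WT was below the median window of 161.6, and in *met-2* it was 120.1, 135.4 and 176.2. Another run of 11 windows, on the right arm of V from 18233000 to 18243999, had a smaller mean difference and so fell outside the rule. It is given because it is equally long, with its values already seen. It held 595 and 1731 reads, a ratio of 1.69 (1.54 to 1.86), and its control ratio was 1.64 (1.41 to 1.90), so that H3K27ac and control differed by nearly the same factor, as on III.

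**Figure D5:**
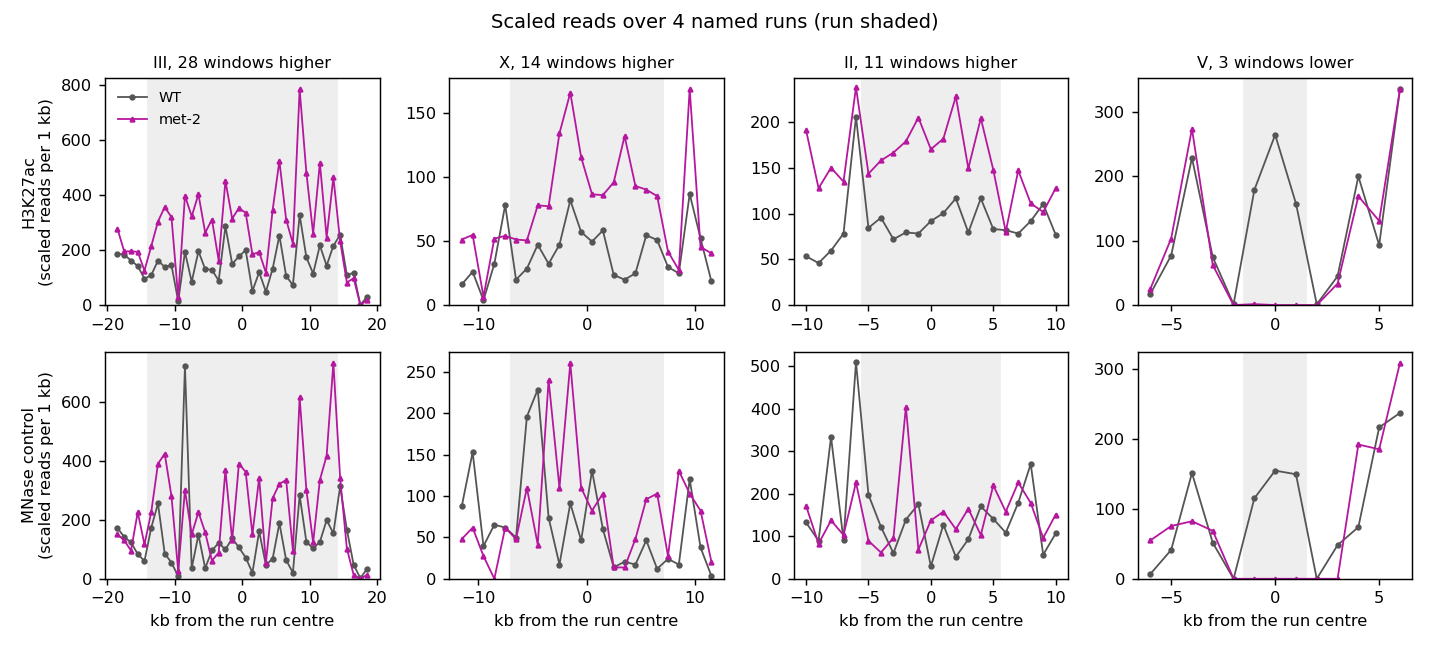
Scaled reads per 1 kb window of H3K27ac (top) and of the MNase control (bottom) in WT (grey) and *met-2* (magenta), by distance in kb from the centre of 4 named runs, with the run shaded. Over the run of 28 windows on III both H3K27ac and the control are higher in *met-2*, by 2.20 and 2.07 times. Over the runs on X and II the H3K27ac lines separate more evenly than the control lines, and over the 3 windows on V both *met-2* lines are at or near 0.

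The lower runs were few and short. The longest, 5 windows in the centre of II from 10861338 to 10866337, held 972 WT reads and 1138 *met-2* reads, a ratio of 0.681 (0.625 to 0.743), while the control ratio was 0.540 (0.427 to 0.676). On the left arm of V, 4 windows from 6179112 to 6183111 held 135 and 99 reads, a ratio of 0.427 (0.326 to 0.557), with 107 and 6 control reads. In both the control was lower in *met-2* as well. Over all 18 lower runs of at least 3 windows the control ratio had a median of 0.513, and its interval lay below 1 in 13 and spanned 1 in 5. The interval of the H3K27ac ratio lay wholly below that of the control in 2 and wholly above it in 4.

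The deepest loss was a stretch of 3 windows on the left arm of V, from 5080122 to 5083121. It held 484 WT reads and 2 *met-2* reads, a ratio of 0.0024 (0.00029 to 0.00873), and its control held 244 and 0 reads. Its middle window held 213 WT reads and 0 *met-2* reads, and the next 127 and 0. Against the floor of 3 reads per library these were at least 122-fold and at least 72.8-fold lower. The flanking windows on either side had a median difference of -0.10. Reads of both kinds were thus nearly absent from the *met-2* libraries over these windows, as the plot of scaled reads over the named runs shows.

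The last 2 named lower runs had 3 windows each. On the right arm of V, 3 windows from 17516007 to 17519006 held 21 WT reads and 3 *met-2* reads, a ratio of 0.083 (0.016 to 0.278). On its left arm, 3 windows from 1689153 to 1692152 held 251 and 244 reads, a ratio of 0.565 (0.472 to 0.677), while the control fell to 0.322 (0.248 to 0.411) of WT. Among bins averaging at least 200 scaled reads, the largest loss was the bin of V from 5079122 to 5089121 that holds the stretch just described, with a difference of -0.75. The next 4 were between -0.51 and -0.41, and their control ratios were 0.606, 0.804, 0.599 and 0.915. Of these 4 only the bin of V from 19068992 to 19078991 passed the threshold, and the others were not called lower.

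Single windows reached larger ratios than runs, with wide intervals. The largest gain lay inside the run on X, from 100825 to 101824, with 16 reads in WT and 183 in *met-2*, a ratio of 6.65 (3.99 to 11.9). Its control held 12 and 2 reads. On the right arm of V the window from 19817985 to 19818984 went from 29 to 244 reads, a ratio of 4.89 (3.32 to 7.46), with a control ratio of 4.56 (2.09 to 10.1). The other 3 named windows, on II, III and IV, had 11 or 12 reads in WT and 99 or 103 in *met-2*. Their ratios were 4.99 to 5.23.

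Of the 5 windows with the largest losses, 3 make up the stretch on V. The other 2 touch each other in the centre of III. The window from 8376874 to 8377873 held 153 WT reads and 36 *met-2* reads, a ratio of 0.137 (0.0924 to 0.198), with 66 and 11 control reads and a control ratio of 0.665 (0.317 to 1.27). The window before it, from 8375874 to 8376873, held 120 and 49 reads, a ratio of 0.238 (0.167 to 0.334), with a control ratio of 0.184 (0.0489 to 0.487). The first thus fell further than its control, and the second by about as much. These windows lie on the chromosome that carries the *met-2* allele, and whether they overlap that gene was not checked.

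The windows with the most H3K27ac in WT differed little. The 5 highest, 3 touching windows in the centre of V and 2 on the right arm of I, had differences between -0.20 and 0.01. The top one, on V from 12235056 to 12236055, held 22128 WT reads and 38437 *met-2* reads, a ratio of 1.01 (0.994 to 1.03). The lowest of the 5, on I from 14855864 to 14856863, held 14690 and 21922, a ratio of 0.868 (0.850 to 0.886). All 5 were also among the 11 windows with the most reads in each of the other libraries, the controls included.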

How the data were processed

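ChIC-seq libraries of sorted L3 body wall muscle were used as deposited, 1 per group, with groups taken from the sample titles. The deposited values are raw read counts per window of the ce10 assembly. By their methods and processing notes, the authors used Trimmomatic 0.39 for trimming, bowtie2 (sensitive setting) for alignment, Bismark for removing duplicates and QuasR for counting reads of either orientation. The windows are wider than the tiling named in the methods. How reads mapping to several places were treated is not given in the sources used here, nor is the use of the adaptor's molecular identifier in removing duplicates. Counts over repeats are therefore uncertain, and the tallest windows may be held down.

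The 808 windows with no read in any library were left out, and the 14 mitochondrial windows counted only towards totals. Of the nuclear windows, 11 differ from 1 kb in width by more than 1 base. Counts were divided by the library total, multiplied by the average total, and log2 was taken after a pseudocount of 8. Intervals of a ratio are exact Clopper-Pearson intervals on the reads of both libraries. They cover counting error only, and PCR reads are not independent molecules. Arms and centres follow the borders in the study's methods. With 1 library per group no p-value was computed.

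Regions were named by rule as the 5 longest runs in each direction (ties in length broken by the larger absolute mean difference, which settled 3 of the 5 in each direction), the 5 windows with the largest and the 5 with the most negative difference among those averaging at least 20 scaled reads, the same for bins of at least 200, and the 5 windows with the highest WT level. The comparison, its measures and these lists were chosen with earlier results of these data known. Alternatives were pseudocounts of 1 and 32, a minimum of 20 scaled reads, a threshold of 1, TMM scaling in edgeR 4.0.16, totals that leave out mitochondrial reads and the top 1% of windows, subtraction of the MNase control, the middle 50% of each chromosome as centre, 1 window of gap in a run, bins shifted by 5 windows and deciles without the top windows. Chosen after seeing the data were the ranking on touching windows, matching by rank, centring on the median and the control over runs. Scripts ran in Python 3.11.15 with numpy 2.4.6, pandas 2.3.3 and scipy 1.17.1, and in R 4.3.3, and were tested on simulated data.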

Additional observations from a re-analysis of the deposited data

How the results depend on the processing

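No paired analysis was possible because only 1 library stands on either side. Of 140 values of the main comparisons under an alternative, 66 stayed close to the reported value, 72 moved and 2 reversed, and of 210 values of named regions 154 stayed, 49 moved and 7 reversed. Centring on the median, totals without the top windows and shifted bins moved none of the main comparisons. TMM scaling moved only the step from lowest to highest decile of average level, to 0.26. Except where the construction of the alternative shows it, the cause was not tested.

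With a pseudocount of 1, the step from lowest to highest decile was 0.52 on WT level, 0.29 on average level, 0.17 on H3K9me3 and 0.34 on H3K9me2, the arm offset 0.13, and there were 43 lower runs of 3 or more windows and 12 higher runs in centres. With 32 these steps were 0.34, 0.19, 0.11 and 0.22 and the offset 0.11. Counts then fell to 4018 higher windows, 1478 lower windows, 2 lower bins, 3221 higher windows in arms, 355 in centres, 109 higher runs, 2 lower runs, 104 higher runs in arms and 1 in centres. With at least 20 scaled reads the steps were 0.50, 0.28, 0.17 and 0.32, with 2 lower bins and 2 higher runs in centres.

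A threshold of 1 left 583 higher and 61 lower windows, 4 higher bins and 1 lower bin, 520 higher windows in arms and 18 in centres, 8 higher runs, 1 lower run, 7 higher runs in arms and 0 in centres. A gap of 1 window gave 452 higher and 38 lower runs, 406 of the higher in arms and 11 in centres. With the middle 50% as centre the arm offset was 0.11, and 1478 higher windows lay in the larger centres. Deciles without the top 1% gave a step of 0.017 on *met-2* level.

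Matching by rank gave 43 higher bins, 125 higher and 40 lower runs, 116 of the higher in arms and 2 in centres. Its steps were 0.19 on WT, -0.21 on *met-2*, 0.0064 on average, 0.00 on H3K9me3 and 0.16 on H3K9me2 level, and its arm offset 0.062. Ranking on touching windows gave steps of 0.20 on WT and 0.10 on *met-2* level.

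Subtraction of the MNase controls changed most. It called 28048 windows higher and 36513 lower, 1452 bins higher and 1582 lower, 16144 higher windows in arms and 7540 in centres, 2143 higher and 3653 lower runs, and 1398 higher runs in arms and 460 in centres. The steps became 0.53 on WT, 0.32 on *met-2*, 0.42 on average, 0.41 on H3K9me3 and -0.081 on H3K9me2 level, and the arm offset 0.21. Without subtraction the steps on H3K9me3 and H3K9me2 level were 0.15 and 0.30, so the one on H3K9me2 reversed. The median of all windows moved to -0.14. Reversed regions were the run of 28 windows on III (-0.038), the bin on III from 11769843 (-0.33), the lower runs on II (0.39) and on V from 6179112 (0.75) and from 1689153 (0.46), the window on III from 8375874 (0.30) and the bin on V from 19068992 (0.21). The controls have 1.08 as SD of their own 1 kb difference, against 0.31 for H3K27ac, and the *met-2* control is the shallowest library.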
